A study of Caenorhabditis elegans with 24 samples.

Results

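Mitochondria of Caenorhabditis elegans make the few proteins encoded by their own DNA on a separate ribosome, the mitoribosome. Its RNAs come from mitochondrial DNA, whereas its proteins are encoded in the nucleus, made in the cytosol and imported. The large subunit joins amino acids at the peptidyl transferase centre and holds a stalk that recruits translation factors, and the small subunit decodes the messenger RNA. In the worm, knockdown of mitoribosomal protein genes such as mrps-5 is known to extend lifespan and to induce the mitochondrial unfolded protein response. The genes described here are all protein-coding genes whose WBcel235 name starts with mrpl- (large subunit) or mrps- (small subunit). There are 70 of them among 19985 protein-coding genes, 41 for the large and 29 for the small subunit. All but mrpl-42 were among the 46756 genes counted, and all 69 of these passed the filter of a mean of at least 10 reads per library, so that none was lost to low counts. Mitoribosomal proteins under other names, such as dap-3, are outside this rule.

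Whole day 1 adult worms fed E. coli OP50 were kept for 3 h at 20°C or at 37°C, and RNA from large pools of worms was sequenced. Wildtype worms were N2 (Bristol). Mutants were hlh-30(tm1978), strain LRL31. HLH-30 is the worm form of TFEB, a regulator of autophagy and lysosome genes. Rescue worms were strain LRL147, the same mutant carrying rab-3p::HLH-30::GFP, in which the rab-3 promoter drives HLH-30 in neurons. The rescue group is 1 transgenic line, and all 3 genotypes were raised at 20°C. Of 24 libraries 23 were used, 3 for wildtype at 20°C and 4 for each other group. The wildtype 20°C replicate 1 was left out because all its 46756 counts equal those of wildtype 37°C replicate 4. The study's methods describe the replicates as independent, each a pool of synchronized animals. The libraries held 11207383 to 28091186 reads assigned to genes. The hlh-30 gene had 39.9 to 73.8 CPM (reads scaled to library size) in wildtype at 20°C, 8.13 to 16 CPM in mutants and 57.4 to 117 CPM in rescue worms, so that mutants were lowest and the groups with HLH-30 did not overlap them. RNA of whole worms cannot tell fewer cells of a type from less RNA per cell.

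The members were well above the middle of the transcriptome and varied less between replicates than the median gene tested. Over the 23 libraries their level had a median of 98.3 CPM per kb of exon (range 16.6 to 396), against 10.9 for all 13482 genes tested and 2026 for the 77 cytosolic ribosomal protein genes tested. Highest per kb were mrpl-51 (396), mrps-18A (371) and mrpl-36 (362), and lowest were mrpl-37 (16.6), mrps-28 (27.2) and mrps-10 (28.2). Genes for subunits of the same particle thus differed widely in mRNA level. Their median within-group SD was 0.180 on the log2 CPM scale, against 0.327 over all genes tested. Most of those genes had a lower level, and no genes of like level were set beside the members.

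Genes of the family lie on every autosome (22 on chromosome III, 15 on I, 12 on II, 11 on IV and 10 on V), and none lies on X. An operon-like arrangement was frequent. For 27 of the 70 (38.6%), a protein-coding gene on the same strand ended within 500 bases upstream, against 18.0% of 19973 nuclear protein-coding genes and 10.3% of the 78 cytosolic ribosomal protein genes. Many worm genes placed in this way are transcribed together and then separated by trans-splicing, but whether each pair here is an operon was not tested. In one run, mrps-2 and mrpl-4 follow each other: mrps-2 starts 116 bases after natc-1, and mrpl-4 starts 105 bases after mrps-2.

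Summed over the 69 genes, the level in unheated wildtype lay from 5186 to 6890 CPM (median 6452), and in heated wildtype from 6878 to 7956 CPM (median 7366). Unheated mutants had 6372 to 7696 CPM (median 7072) and heated mutants 7312 to 9020 CPM (median 7581). Rescue worms had the lowest medians at each temperature, with 5008 to 5899 CPM (median 5750) unheated and 5055 to 6325 CPM (median 6017) heated. At both temperatures every rescue library was below every mutant library, and at 37°C every rescue library was also below every wildtype library. The gap to wildtype at 37°C holds for the scaled sum only. Median log2 CPM of the members overlapped, at 5.98 to 6.29 in rescue worms and 6.20 to 6.36 in wildtype. Their share of all counts overlapped too, reaching 0.649% in rescue worms and starting at 0.633% in wildtype.

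**Figure D1:**
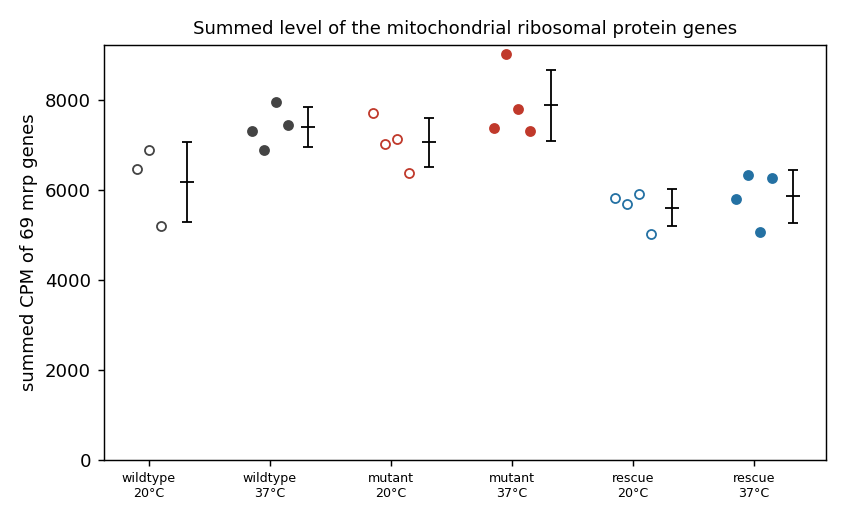
Summed CPM of the 69 counted mrpl and mrps genes (y axis) in each of the 23 libraries (points; open at 20°C, filled at 37°C) by group, with the group mean and SD (bar). Rescue libraries sit between 5008 and 6325 CPM, and mutant libraries between 6372 and 9020 CPM.

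The first question was how these genes responded to 3 h at 37°C in each genotype. A subset of members rose, led by mrpl-2, mrpl-17 and mrpl-45, and few fell. Called by an edgeR quasi-likelihood test at an adjusted p (Benjamini-Hochberg over the 13482 genes tested) under 0.05, 16 members were higher and 3 lower with heat in wildtype, against 15% of all genes tested higher and 17.1% lower. In mutants 19 were higher and 3 lower, against 21.3% and 16.8% of all genes. In rescue worms 13 were higher and 1 lower, against 11.7% and 8.72%. The higher members were thus 23.2%, 27.5% and 18.8% of the family, each above the share of all genes, and the lower members were 4.3%, 4.3% and 1.4%, each below it. These shares are descriptions, and that for higher members did not stay above all genes in rescue worms: it was 7.2% against 9.61% with library size alone as the scale, 8.7% against 9.75% without replicate 1, 4.3% against 4.71% without replicate 2 and 10.1% against 14.4% without replicate 4. In wildtype it was 4.3% against 4.46% with shallower libraries only. Genes of like length give a second background, as the members are short (median exon length 759 bases, against 1318 over all genes tested). Of members of 663 bases or shorter, 5, 5 and 3 of 23 were higher in wildtype, mutant and rescue worms. This was near or below the 20.5%, 25.7% and 14.4% of all genes of that length. Of members of 664 to 999 bases it was 6, 6 and 3 of 23, beside 13.7%, 20.0% and 10.5%. Of members of 1000 bases or longer it was 5, 8 and 7 of 23, beside 14.2%, 20.6% and 11.4%. The part of length in the heat response was not tested. Median log2 fold changes over the family were 0.23, 0.16 and 0.12 in wildtype, mutant and rescue worms, against 0.01, 0.04 and 0.01 over all genes. These medians are small and moved with the setting: with library size alone as the scale they were 0.11, 0.01 and 0.02 (all genes -0.104, -0.114 and -0.075), and the lowest with a replicate left out were 0.14 in wildtype and 0.04 in rescue worms (without replicate 4 in each) and 0.08 in mutants (without replicate 2). The large subunit supplied 9, 12 and 10 of the higher members in wildtype, mutant and rescue worms, and the small subunit 7, 7 and 3.

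**Figure D2:**
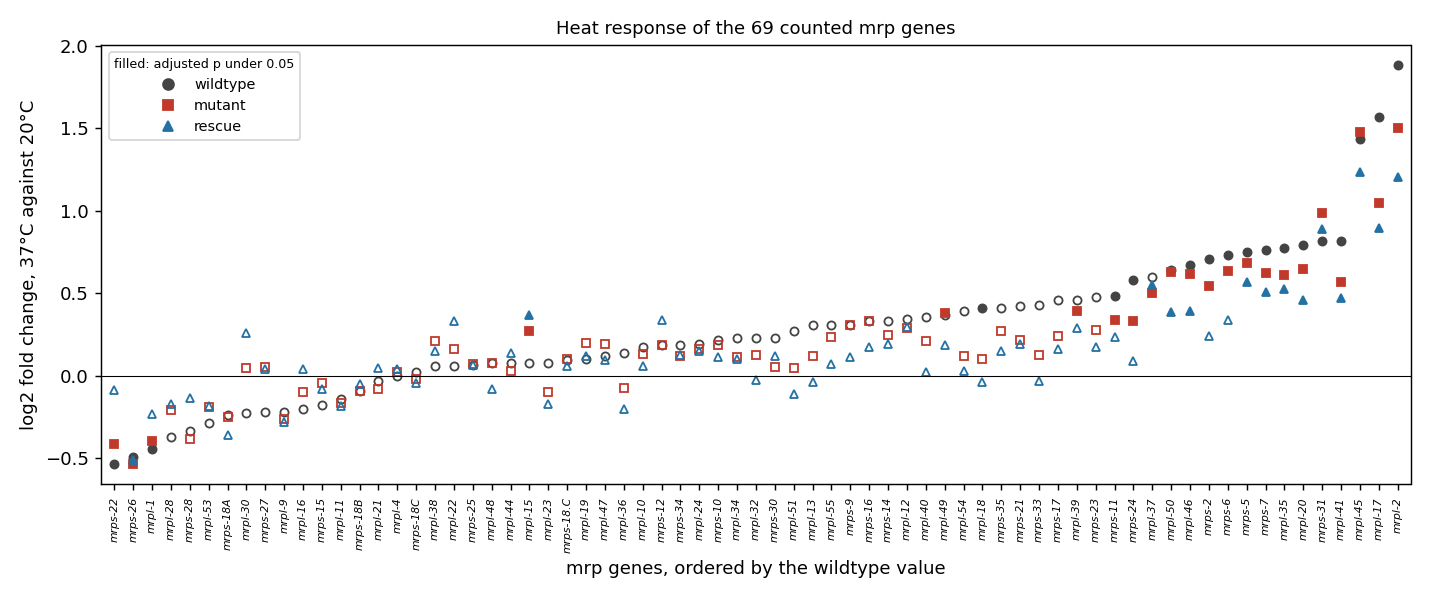
Log2 fold change at 37°C against 20°C (y axis) of each of the 69 counted genes (x axis, ordered by the wildtype value) in wildtype (circles), mutant (squares) and rescue worms (triangles), filled where the edgeR adjusted p was under 0.05. The right end is led by mrpl-2, mrpl-17 and mrpl-45, and mrps-26 is filled below 0 in all 3 genotypes.

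The strongest risers were 3 genes of the large subunit. The gene mrpl-2 (chr IV: 773237-776655, + strand) encodes the protein that shapes the peptidyl transferase centre. In wildtype it had 21.9, 18.4 and 16.2 CPM in the 3 libraries at 20°C and 86.0, 81.4, 61.0 and 51.6 CPM in the 4 at 37°C. Unheated mutants had 18.6, 19.1, 17.9 and 20.5 CPM and heated mutants 54.2, 56.2, 43.9 and 61.0 CPM. Heated and unheated libraries stood far apart in these genotypes. In rescue worms, where the values were 27.8, 24.5, 24.3 and 21.5 CPM and then 51.7, 65.7, 48.2 and 55.4 CPM, the groups did not overlap either. The log2 fold changes of mrpl-2 were 1.89 ± 0.24 (SE; edgeR adjusted p = 8.22e-04) in wildtype, 1.5 ± 0.14 (adjusted p = 9.43e-06) in mutants and 1.21 ± 0.15 (adjusted p = 1.29e-04) in rescue worms, or 3.70-fold, 2.83-fold and 2.31-fold.

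The gene mrpl-45 (chr III: 1196389-1202008, - strand) encodes a protein that in mammals anchors the mitoribosome to the inner membrane. It had 49.6, 47.3 and 41.9 CPM in wildtype at 20°C and 144, 144, 110 and 104 CPM at 37°C. Its log2 fold changes were 1.44 ± 0.18 in wildtype, 1.48 ± 0.16 in mutants and 1.24 ± 0.14 in rescue worms (edgeR adjusted p = 8.10e-04, 3.00e-05 and 5.69e-05). Heated and unheated libraries did not overlap in any of the 3 genotypes. The gene mrpl-17 (chr I: 3162813-3163585, + strand), whose bacterial counterpart lies near the exit of the peptide tunnel, had 26.3, 20.8 and 18.0 CPM in wildtype at 20°C and 70.7, 64.9, 70.7 and 52.9 CPM at 37°C. Its log2 fold changes were 1.57 ± 0.20, 1.05 ± 0.14 and 0.90 ± 0.18 in the same order (edgeR adjusted p = 8.02e-04, 1.22e-04 and 0.0045), but without replicate 2 the rise in rescue worms was 0.77 (adjusted p = 0.0746). For each of these 3 genes an exact two-sided permutation test on log2 CPM gave p = 0.0286 in mutants and in rescue worms and p = 0.0571 in wildtype, in each case the smallest value that the number of libraries allows.

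**Figure D3:**
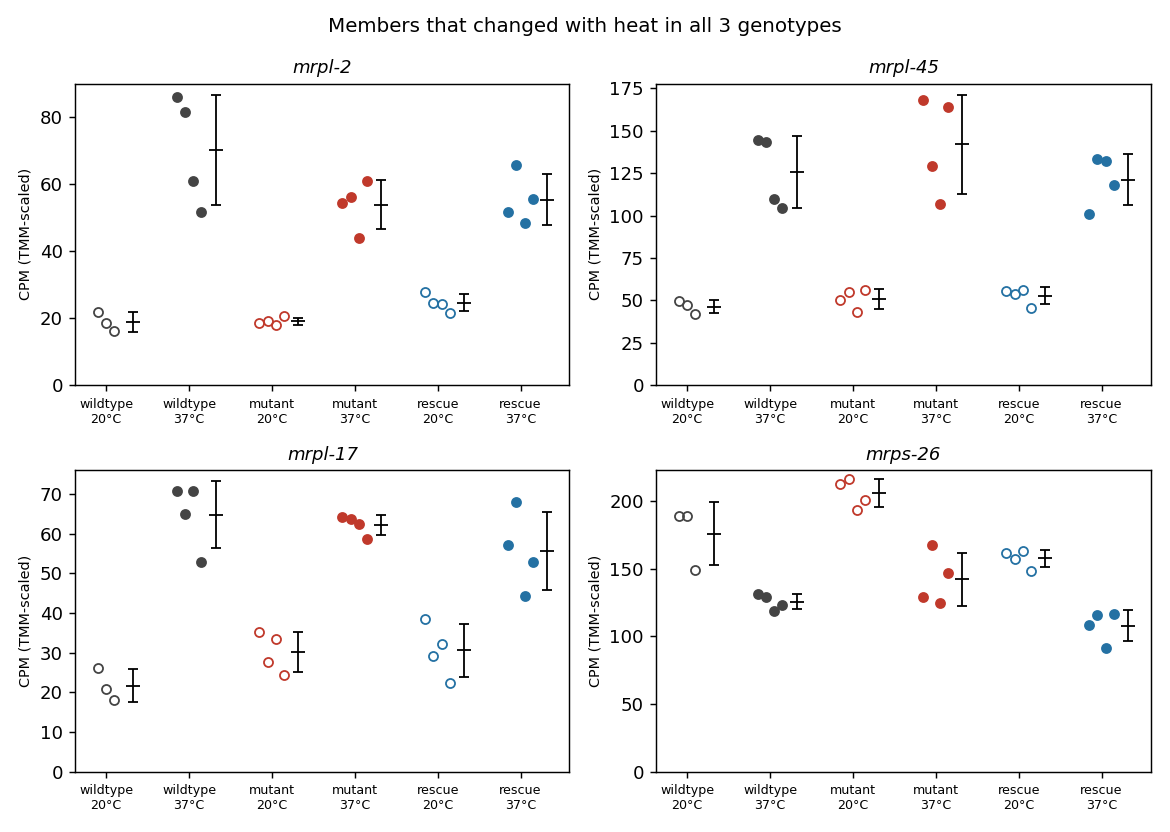
CPM (y axis) of mrpl-2, mrpl-45, mrpl-17 and mrps-26 in each library (points; open at 20°C, filled at 37°C) by group, with the group mean and SD (bar). In wildtype, mrpl-2 moved from between 16.2 and 21.9 to between 51.6 and 86.0 CPM, and mrps-26 moved down in each genotype.

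In all, 11 members were higher with heat in each of the 3 genotypes: mrpl-2, mrpl-17, mrpl-20, mrpl-35, mrpl-41, mrpl-45, mrpl-46, mrpl-50, mrps-5, mrps-7 and mrps-31. These are 11 of 16 called higher in wildtype, 11 of 19 in mutants and 11 of 13 in rescue worms, and the 3 comparisons share no library. The calls of mrpl-46 and mrpl-50, which are named here after their values were seen, were near the threshold in rescue worms and were lost in 8 of 11 alternatives each. Most of the 11 calls in rescue worms were also lost without replicate 2, where 3 members in all were called higher. Without replicates 1, 3 and 4 there were 6, 10 and 7 called higher, against 13 in the main fit. By sign alone, 44 of the 69 log2 fold changes were above 0 in every genotype and 11 below. Over the 69 genes, log2 fold changes correlated at Pearson r = 0.95 between wildtype and mutant, 0.86 between wildtype and rescue and 0.95 between mutant and rescue, beside 0.92, 0.77 and 0.85 over all genes tested. These are descriptions over genes and carry no test. The small subunit gene mrps-31, which has no bacterial counterpart, rose by 0.82 ± 0.13, 0.99 ± 0.13 and 0.89 ± 0.13 on the log2 scale in wildtype, mutant and rescue worms (edgeR adjusted p = 0.00261, 1.00e-04 and 4.93e-04).

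Among the genes with a known role, mrps-5 rose in all 3 genotypes. It had 91.4, 78.4 and 80.5 CPM in wildtype at 20°C and 150, 141, 150 and 124 CPM at 37°C. Its log2 fold changes were 0.75 ± 0.14, 0.68 ± 0.11 and 0.57 ± 0.12 in wildtype, mutant and rescue worms (edgeR adjusted p = 0.00421, 5.54e-04 and 0.00575). The gene mrps-7, whose protein sits in the head of the small subunit, rose by 0.76 ± 0.17, 0.63 ± 0.13 and 0.51 ± 0.14 (adjusted p = 0.0103, 0.00216 and 0.0247). Of the 7 genes chosen for their role, mrpl-2, mrpl-45, mrps-5 and mrps-7 were called higher in all 3 genotypes in the main fits. The other 3 passed the threshold in none. The stalk genes mrpl-12 and mrpl-10 had wildtype log2 fold changes of 0.34 ± 0.16 (edgeR adjusted p = 0.135) and 0.18 ± 0.15 (adjusted p = 0.399), and mrps-12, whose protein lies at the decoding centre, had 0.19 ± 0.17 (adjusted p = 0.445). To a like degree rose 3 large subunit genes, mrpl-20 (0.79 ± 0.16, 0.64 ± 0.13 and 0.46 ± 0.13), mrpl-35 (0.77 ± 0.16, 0.61 ± 0.14 and 0.52 ± 0.14) and mrpl-41 (0.82 ± 0.17, 0.57 ± 0.12 and 0.47 ± 0.14), with edgeR adjusted p between 0.00234 and 0.0289.

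Few members fell with heat. The gene mrps-26 (chr III: 5234612-5236364, + strand), a small subunit gene without bacterial counterpart, was the only one lower in all 3 genotypes. Unheated wildtype libraries had 189, 189 and 149 CPM of it and heated ones 131, 129, 119 and 123 CPM, without overlap. Its log2 fold changes were -0.49 ± 0.14, -0.54 ± 0.12 and -0.51 ± 0.12 in wildtype, mutant and rescue worms (edgeR adjusted p = 0.0255, 0.00349 and 0.00784). Next were mrps-22 and mrpl-1, the latter encoding the protein of the mobile stalk at the exit site of transfer RNA. The log2 fold changes of mrps-22 were -0.54 ± 0.16 (adjusted p = 0.0312) in wildtype, -0.42 ± 0.11 (adjusted p = 0.00823) in mutants and -0.09 ± 0.12 (adjusted p = 0.634) in rescue worms. Those of mrpl-1 were -0.45 ± 0.15 (adjusted p = 0.0442) in wildtype and -0.40 ± 0.13 (adjusted p = 0.0261) in mutants. In wildtype these 3 calls were near the threshold: each was lost without replicate 2, without replicate 3 and with shallower libraries only, with edgeR adjusted p of 0.133 to 0.504. Those of mrps-26 and mrpl-1 were also lost without replicate 1 (0.0577 and 0.116) and without the low count filter (0.0518 and 0.0898), and that of mrps-22 without replicate 4 (0.072). In mutants the call of mrpl-1 was also lost without replicate 1 or 4 (adjusted p = 0.156 and 0.0697) and that of mrps-22 without replicate 1 (0.0593), and in rescue worms that of mrps-26 without replicate 2 (0.0723).

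The number of heat calls rested on single libraries. In wildtype it was 11 instead of 19 without replicate 2, 3 when only libraries of at most 20000000 reads were kept, which left 1 library at 37°C, and 30 when all 23 libraries shared 1 fit. In rescue worms it was 3 instead of 14 without replicate 2, 7 without replicate 1 and 9 without replicate 4, and with library size alone as the scale 5 were higher and 3 lower. In mutants library size alone gave 13 higher and 7 lower. Markers of other tissues moved with heat too. The summed level of 17 germline and oocyte markers was 3128 to 6666 CPM in wildtype at 20°C and 7185 to 12912 CPM at 37°C, with 8 of 17 called higher and 0 lower, 9 and 2 in mutants and 4 and 1 in rescue worms. The sum of 7 intestine markers, which include yolk protein genes, was 66290 to 141955 CPM and then 7459 to 12967 CPM, with 7, 7 and 4 of 7 called lower in wildtype, mutant and rescue worms. Of the defining markers in these lists, none was at 0 in any group, and the part of tissue make-up in the heat response of the mitoribosomal genes was not tested.

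The heat response was set beside the other parts of mitochondrial gene expression. Of 16 tested genes for mitochondrial translation factors, RNA processing and DNA maintenance, 4, 4 and 1 were higher and 2, 2 and 0 lower in wildtype, mutant and rescue worms. The one higher in all 3 genotypes was polg-1, the mitochondrial DNA polymerase, with log2 fold changes of 1.08 ± 0.25, 0.83 ± 0.19 and 0.94 ± 0.17 (edgeR adjusted p = 0.0114, 0.00452 and 0.00194). The elongation factor gene tufm-2 had -0.56 ± 0.19, -0.47 ± 0.11 and -0.33 ± 0.15 (adjusted p = 0.0496, 0.00633 and 0.15). Of the 12 mRNAs of mitochondrial DNA, which the mitoribosome translates, 3, 2 and 1 were higher and 1, 6 and 1 lower. Of 22 genes for protein import, chaperones and proteases of mitochondria, 4, 5 and 3 were higher and 4, 2 and 1 lower. Higher in all 3 genotypes were the chaperone gene hsp-6, a reporter of the mitochondrial unfolded protein response (1.23 ± 0.31, 0.97 ± 0.25 and 0.69 ± 0.15; adjusted p = 0.018, 0.00839 and 0.006), and the import genes timm-23 and tomm-20. The cytosolic ribosomal protein genes behaved more uniformly: 56, 65 and 51 of 77 were higher, with median log2 fold changes of 0.86, 0.72 and 0.62, and 1, 1 and 0 lower.

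Close neighbours did not always respond alike. The pairs named here were chosen after their values were seen. Of the members with a same-strand gene ending within 500 bases upstream, 25 had a tested neighbour, and in wildtype the log2 fold changes with heat had the same sign in 9 pairs and opposite signs in 16. The Spearman correlation over the 25 pairs was -0.21 in wildtype, -0.16 in mutants and -0.11 in rescue worms, as a description. The gene mrps-22 starts 105 bases after dap-3, which itself encodes a mitoribosomal small subunit protein in mammals. In wildtype dap-3 rose by 0.65 ± 0.17 (edgeR adjusted p = 0.0208) while mrps-22 fell by 0.54, and in mutants dap-3 rose by 0.54 ± 0.11 (adjusted p = 0.00185) while mrps-22 fell by 0.42. In the run of natc-1, mrps-2 and mrpl-4, the log2 fold changes in wildtype were -0.69 ± 0.21 (adjusted p = 0.0329), 0.71 ± 0.15 (adjusted p = 0.00731) and -0.00 ± 0.14 (adjusted p = 0.986). The call of mrps-2 in wildtype was lost without replicate 2 (adjusted p = 0.0523). The pair mrpl-50 and cct-2, a chaperonin gene ending 25 bases upstream, rose together, by 0.64 ± 0.16 (adjusted p = 0.0149) and 1.33 ± 0.32 (adjusted p = 0.0135) in wildtype, the former call being lost without replicate 2 (adjusted p = 0.0795). Head to head on chromosome IV, mrpl-1 (7707574-7709701, - strand) and mrps-24 (7710045-7710828, + strand) moved apart in wildtype, with -0.45 and 0.58 ± 0.18 (adjusted p = 0.0376 for mrps-24), and in mutants, with -0.40 and 0.33 ± 0.12 (adjusted p = 0.048), where the call of mrps-24 was lost in 9 of 11 alternatives. In wildtype it was lost without replicates 2, 3 or 4 (adjusted p of 0.0571 to 0.149) and with library size alone as the scale (0.0973). With shallower libraries only, which left 1 heated wildtype library, the log2 fold change of mrps-24 was 0.38.

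The second question was whether loss of HLH-30 changed these genes. No single member passed the threshold at either temperature. At 20°C the edgeR test called 0 members higher and 0 lower in mutants against wildtype, against 0.134% and 0.601% of all genes, and at 37°C also 0 and 0, against 0.134% and 0.630%. At an unadjusted p under 0.05, 18 members (26.1%) were higher at 20°C and 21 (30.4%) at 37°C, and 0 were lower at either. Over all genes 6.84% were higher and 9.95% lower at 20°C, and 8.82% and 9.5% at 37°C. DESeq2 called 1 member higher at 20°C (1.4%, against 0.816% of all genes) and 5 at 37°C (7.2%, against 1.96%), and none lower (against 2.34% and 2.87%). By sign the family leaned up: 66 of 69 log2 fold changes were above 0 at 20°C (median 0.23, against -0.07 over all genes) and 51 of 69 at 37°C (median 0.18, against -0.02). For 15 members every mutant library was above every wildtype library at 20°C and for 0 below, against 7.48% and 8.07% of all genes. At 37°C these were 18 and 0, against 6.62% and 4.66%.

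The clearest single case was mrps-34, a small subunit gene without bacterial counterpart, named here after its values were seen. It had 57.8, 64.2 and 54.5 CPM in wildtype at 20°C and 96.5, 83.8, 92.8 and 82.3 CPM in mutants. At 37°C it had 70, 65.2, 68.3 and 66.1 CPM in wildtype and 87.5, 111, 93.3 and 95.0 CPM in mutants. The groups did not overlap at either temperature. Its log2 fold changes were 0.61 ± 0.13 (edgeR adjusted p = 0.0734) and 0.52 ± 0.11 (adjusted p = 0.0638). The threshold was passed by DESeq2 (adjusted p = 0.00213 and 0.00403) and by the fit of all 23 libraries (0.00398 and 0.00614), and with any replicate left out the edgeR adjusted p was 0.154 to 0.348.

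The third question was how rescue worms differed from mutants. The rescue group is 1 line, and by the study's methods the transgene was injected together with an unc-122p::RFP marker. The design therefore cannot tell an effect of neuronal HLH-30 from one of the line or marker. A large share of the family was lower in rescue worms than in mutants, at both temperatures. At 20°C 32 of 69 members were lower and 1 higher by the edgeR test, against 13.1% of all genes lower and 10.1% higher. At 37°C 33 were lower and 0 higher, against 20.3% and 16.5%. The share of lower members was 46.4% and 47.8%. Median log2 fold changes were -0.33 and -0.34, against 0.07 and 0.00 over all genes. The 2 temperatures share no library, and 30 members were lower at both, which is 30 of 32 and 30 of 33. Both subunits took part, with 19 of 40 large and 13 of 29 small subunit genes lower at 20°C and 20 and 13 at 37°C. At 20°C the number called was 19 instead of 33 without replicate 2. At 37°C it was between 23 and 32 with any replicate left out, and library size alone as the scale gave 26 lower and 7 higher.

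The largest falls were those of mrpl-51, mrps-24, mrps-23 and mrpl-36. The gene mrpl-51 (chr IV: 12031324-12032154, + strand) had 384, 357, 354 and 303 CPM in mutants at 20°C and 172, 192, 189 and 164 CPM in rescue worms. At 37°C mutants had 321, 436, 377 and 308 CPM and rescue worms 153, 183, 127 and 184 CPM. Each rescue library was well under the lowest mutant value, whereas wildtype libraries, at 315, 391 and 266 CPM at 20°C, overlapped the mutants. The log2 fold changes of mrpl-51 in rescue against mutant were -1.04 ± 0.10 (edgeR adjusted p = 1.11e-04) at 20°C and -1.23 ± 0.16 (adjusted p = 1.71e-04) at 37°C.

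The gene mrps-24 encodes the small subunit protein related to bacterial S3, at the entry of the mRNA channel. It had 194, 191, 203 and 186 CPM in mutants at 20°C and 101, 117, 111 and 105 CPM in rescue worms. Its log2 fold changes were -0.92 ± 0.09 (edgeR adjusted p = 9.79e-05) at 20°C and -1.19 ± 0.15 (adjusted p = 1.58e-04) at 37°C. For mrps-23, without bacterial counterpart, they were -1.0 ± 0.13 (adjusted p = 4.05e-04) and -1.13 ± 0.14 (adjusted p = 1.52e-04), and for mrpl-36 -0.98 ± 0.12 (adjusted p = 2.73e-04) and -1.13 ± 0.18 (adjusted p = 4.62e-04). In each of these 3 genes the rescue libraries did not overlap the mutant libraries at either temperature.

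**Figure D4:**
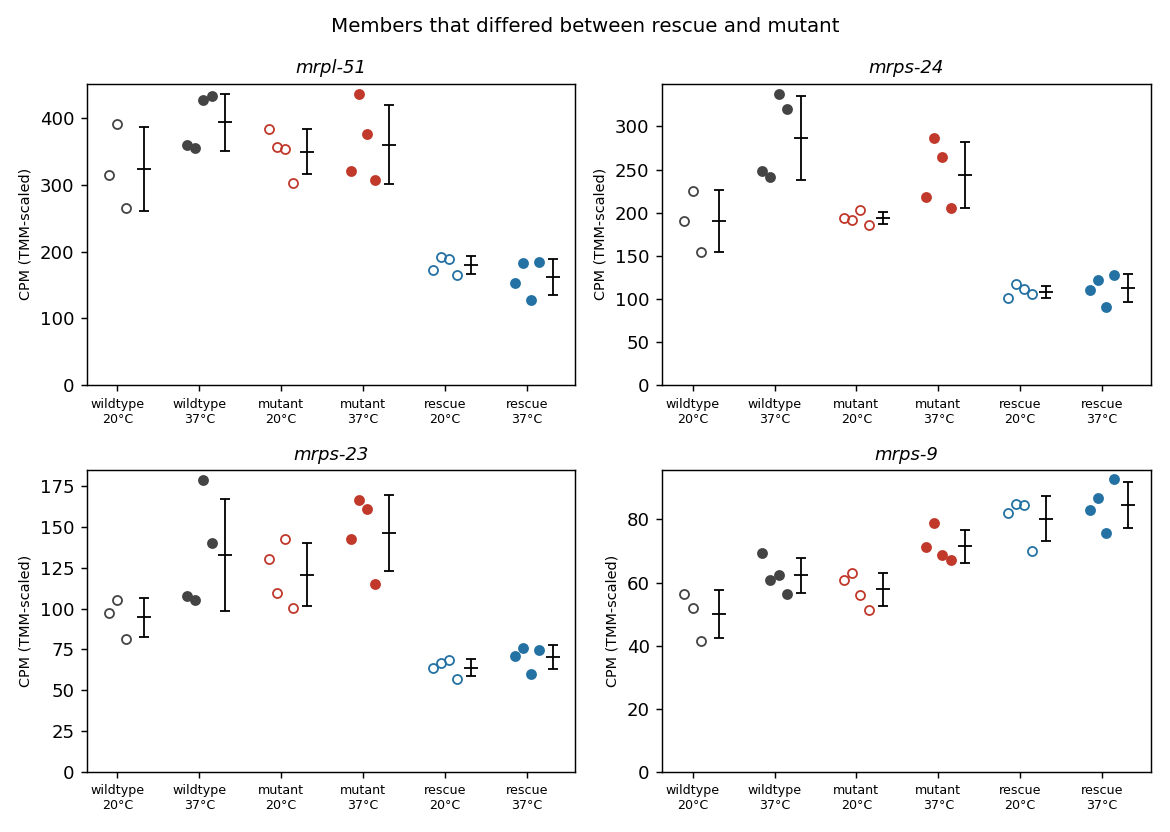
CPM (y axis) of mrpl-51, mrps-24, mrps-23 and mrps-9 in each library (points; open at 20°C, filled at 37°C) by group, with the group mean and SD (bar). For mrpl-51 the rescue libraries lie between 127 and 192 CPM and the mutant libraries between 303 and 436 CPM, and mrps-9 is the one gene of the 4 that is higher in rescue worms.

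By sign, 20.3% of the members had a log2 fold change above 0 at 20°C. The only one called higher there was mrps-9, related to bacterial S9, whose tail reaches the decoding site. It had 60.9, 62.9, 56.1 and 51.3 CPM in mutants and 81.9, 84.8, 84.6 and 69.8 CPM in rescue worms, which do not overlap, with a log2 fold change of 0.39 ± 0.11 (edgeR adjusted p = 0.0256). The call was lost under DESeq2 (adjusted p = 0.0524), with shallower libraries only (0.128) and without replicates 1, 2 or 3 (adjusted p of 0.0739 to 0.207). Of the genes that rose most with heat, mrpl-2 and mrpl-45 did not pass the threshold between these strains. The gene mrpl-2 had 0.29 ± 0.13 (adjusted p = 0.146) at 20°C and -0.03 ± 0.14 (adjusted p = 0.879) at 37°C, and mrpl-45 had -0.03 ± 0.12 (adjusted p = 0.895) and -0.29 ± 0.15 (adjusted p = 0.14). For mrps-5 the values were -0.06 ± 0.11 (adjusted p = 0.75) and -0.20 ± 0.11 (adjusted p = 0.202). This does not hold for all members that rose with heat. The gene mrpl-50, named here after its values were seen, had 225 to 251 CPM in mutants and 140 to 156 CPM in rescue worms at 20°C. At 37°C it had 327 to 430 CPM and 166 to 229 CPM.

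The members lower in rescue worms were mostly abundant ones with short mRNAs. The level was taken from wildtype libraries, which this comparison does not use. Over the 69 genes the log2 fold change of rescue against mutant had a Spearman correlation of -0.84 at 20°C and -0.86 at 37°C with wildtype CPM per kb, and of 0.55 and 0.54 with exon length. Over all 13482 genes these were -0.40 and -0.48 with the level and 0.23 and 0.31 with the length. CPM per kb is divided by the length, so the pair are not separate measures. Of the 23 members with the highest wildtype level, 19 of 23 were lower at 20°C (median log2 fold change -0.74) and 20 of 23 at 37°C (median -0.92). Of the 23 with the lowest level it was 0 of 23 at both temperatures, with medians of 0.02 and -0.02. Of all genes tested below the cut that set off these lowest 23, 6.18% were lower at 20°C and 12.7% at 37°C. Of the 23 members of middle level, 13 were lower at 20°C (median -0.39) and 13 at 37°C (median -0.46). Of all genes tested between the same cuts, 35.5% were lower at 20°C (median -0.22) and 49.3% at 37°C (median -0.36).

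Abundant genes in general showed a smaller shift in the same direction. Of all genes tested above the level cut that set off the highest 23 members, 48.3% were lower at 20°C (median -0.35) and 56.6% at 37°C (median -0.51). These shares are a nearer background for the highest 23 members than those over all genes, but not one of like level. The genes above that cut had no upper limit, whereas the members ended at 437 CPM per kb at 20°C and 531 at 37°C. For members of 663 bases or shorter, 17 of 23 were lower at 20°C and 18 of 23 at 37°C, beside 23.6% and 32.3% of all genes of that length. For members of 1000 bases or longer it was 5 of 23 and 4 of 23, beside 8.25% and 14.7%. The gene mrps-18A, second highest per kb in the family, was not called lower (-0.19 ± 0.09 at 20°C and -0.32 ± 0.16 at 37°C; edgeR adjusted p = 0.148 and 0.126), and the cytosolic ribosomal protein genes, higher still in level and short (median exon length 545 bases, against 759 for the members), had medians of 0.15 at 20°C and 0.01 at 37°C with 5 and 9 of 77 lower. Within that set the fold change also fell with the wildtype level per kb (Spearman -0.60 at 20°C and -0.75 at 37°C). The part of transcript length or level in the difference between strains was not tested.

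**Figure D5:**
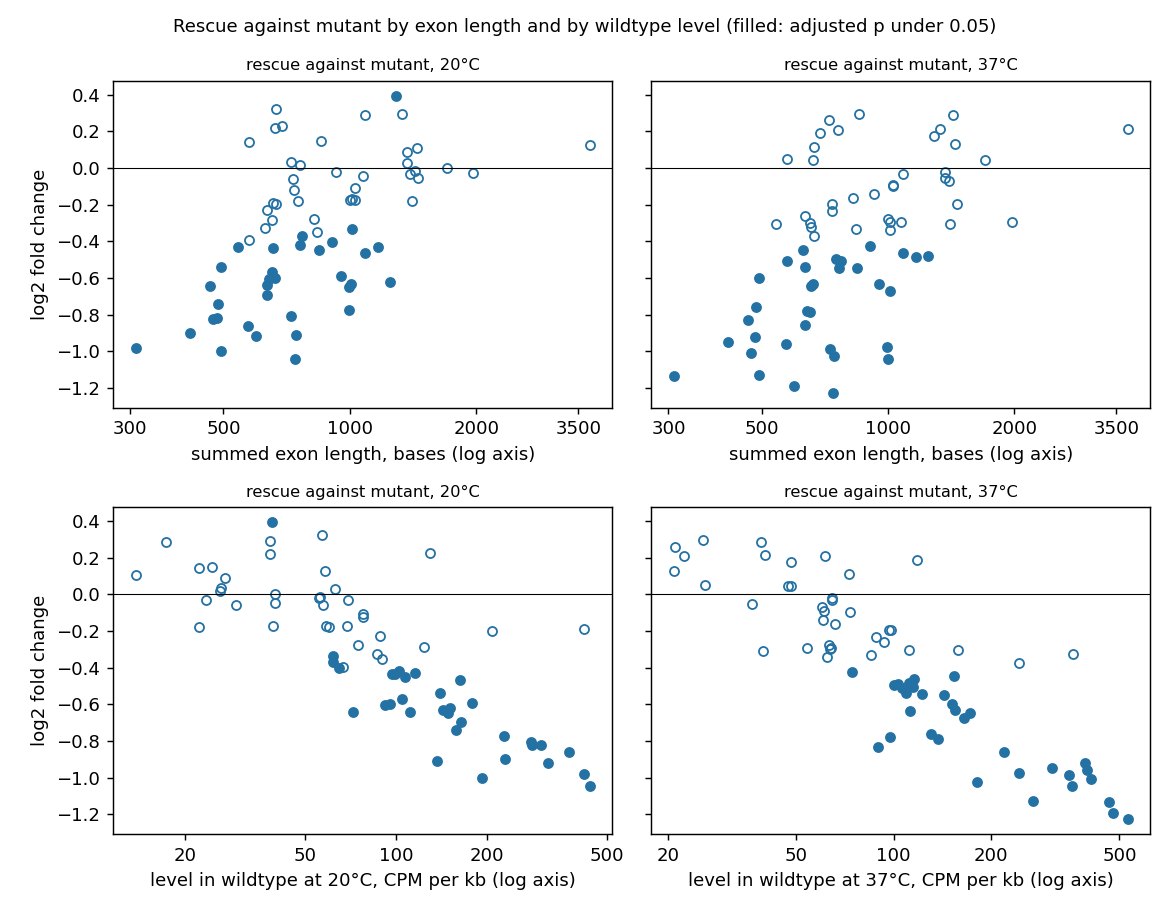
Log2 fold change of rescue against mutant (y axis) of the 69 genes against summed exon length (top, log axis) and against the mean level in wildtype of the same temperature in CPM per kb (bottom, log axis), at 20°C (left) and 37°C (right), filled where the edgeR adjusted p was under 0.05. Points fall from left to right in the lower panels, with Spearman correlations of -0.84 and -0.86.

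Tissue markers differed between the strains as well. All 6 tested sperm markers were higher in rescue worms than in mutants at both temperatures, with summed levels of 12.7 to 23.1 CPM over 7 genes against 1.1 to 2.9 CPM at 20°C and 11.9 to 22 CPM against 0.5 to 5.3 CPM at 37°C. Of 7 neuron markers 2 were higher and 0 lower at 20°C, and 4 higher and 1 lower at 37°C. Their summed level was 233 to 281 CPM in rescue worms and 140.0 to 171 CPM in mutants at 20°C, and 174.0 to 193 CPM against 164 to 173 CPM at 37°C. The largest rise was that of rab-3, with log2 fold changes of 3.38 ± 0.21 and 3.41 ± 0.28 (edgeR adjusted p = 4.89e-05 and 2.31e-05). By the study's methods the transgene holds the rab-3 promoter and also the untranslated region after the rab-3 coding sequence. Reads of the transgene can therefore count as rab-3. The neuron counts and sums include rab-3, so they cannot tell such reads from a difference in neurons. Of 7 intestine markers 0 were called higher at 20°C and 6 at 37°C. Of 17 germline and oocyte markers 2 were lower at each temperature and 1 higher at 37°C, and their sums overlapped between the strains. The part of these tissues in the lower mitoribosomal levels was not tested.

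Against wildtype, rescue worms showed a mixed picture. At 20°C 13 members were lower and 3 higher, against 7.92% and 5% of all genes, and at 37°C 23 were lower and 7 higher, against 21.9% and 18.2%. All 13 lower at 20°C were also lower at 37°C, among 23. These comparisons share the rescue libraries with those against the mutant. At 20°C no call remained without replicate 2 or without replicate 3. At 37°C 19 remained without replicate 4 and 19 were made with libraries of at most 20000000 reads only, and library size alone as the scale gave 15 lower and 17 higher. The largest falls were again those of mrpl-51 (-0.88 ± 0.14 at 20°C and -1.34 ± 0.15 at 37°C; edgeR adjusted p = 0.00658 and 1.00e-04), mrps-24 (-0.84 ± 0.14 and -1.41 ± 0.15; adjusted p = 0.00726 and 9.78e-05), mrpl-36 (-0.86 ± 0.15 and -1.27 ± 0.17; adjusted p = 0.00983 and 3.22e-04) and mrpl-13 (-0.83 ± 0.15 and -1.25 ± 0.14; adjusted p = 0.0103 and 1.13e-04). Higher than in wildtype at both temperatures were mrps-9 (0.65 ± 0.14 and 0.38 ± 0.13; adjusted p = 0.0203 and 0.0316), mrpl-11 of the stalk base (0.60 ± 0.14 and 0.49 ± 0.12; adjusted p = 0.025 and 0.00867) and mrpl-44 (0.38 ± 0.11 and 0.37 ± 0.13; adjusted p = 0.0487 and 0.0376).

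At 37°C the largest rises against wildtype were those of mrps-22, mrpl-30 and mrpl-22. The gene mrps-22 had 65.5, 57.3, 51.4 and 48.1 CPM in heated wildtype and 96.8, 91.3, 94.3 and 102 CPM in heated rescue worms, with a log2 fold change of 0.73 ± 0.14 (edgeR adjusted p = 0.00179). Unheated rescue worms had 111, 105, 111 and 92.4 CPM, which overlap the heated ones. For mrpl-30 the value was 0.72 ± 0.14 (adjusted p = 0.00196) and for mrpl-22, which lines the peptide tunnel, 0.50 ± 0.17 (adjusted p = 0.0326).

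The last question was whether heat acted differently by genotype, tested as an interaction in 1 edgeR model of the 23 libraries. No member passed the threshold. For mutant against wildtype 0 members were called in either direction, against 0% of all genes in either, and 0 higher and 1 lower had an unadjusted p under 0.05 (3.48% and 0.86% of all genes). For rescue against mutant 0 were called, against 0.00742% of all genes higher and 0.0371% lower, with 0 and 1 at an unadjusted p under 0.05 (3.86% and 5.79% of all genes). For rescue against wildtype 0 were called, against 2.44% and 0.630%, with 2 (2.9%) and 10 (14.5%) at an unadjusted p under 0.05, beside 12.5% and 10.8% of all genes. DESeq2 called 0, 0 and 1 members, the last being mrpl-2, against 0.0148% of all genes higher and 0% lower, 0.178% and 0.386%, and 5.01% and 2.09% in the same order. The difference in the heat response of mrpl-2 between rescue and wildtype was -0.72 ± 0.23 on the log2 scale (edgeR adjusted p = 0.0809; DESeq2 adjusted p = 0.045), and over the other alternatives the adjusted p was 0.0619 to 0.362. For mrps-22 the difference was 0.41 ± 0.15 (edgeR adjusted p = 0.119). By the edgeR test the heat response was thus not shown to differ between genotypes for any member.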

How the data were processed

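The authors trimmed paired reads with Trimmomatic, aligned them to WBcel235 with STAR and counted reads per gene with featureCounts of Subread, and deposited raw counts per gene for each library; the strand setting is not given in the sources used here. Members were found by name in the Ensembl 115 annotation (46581 of 46756 counted genes matched by ID). The members and lists were chosen with earlier results of these data known. Counts were tested with edgeR 4.0.16 (quasi-likelihood test, TMM scaling, R 4.3.3) on 13482 genes with a mean of at least 10 counts over 23 libraries, adjusted over all of them by Benjamini-Hochberg. Comparisons of 2 groups fitted those groups alone. CPM are counts scaled by the summed counts of tested genes times the TMM factor, and log2 CPM used a prior count of 2. Named genes are the up to 4 largest rises and falls called in each comparison, up to 10 called with heat in all 3 genotypes, the 3 highest and lowest per kb, and 7 chosen for their role. Replicate numbers were not used to pair the libraries in the main fits. Alternatives were DESeq2 1.42.0 and other scalings, filters and library sets. The tests were tested on simulated data. Counting without strand could mix overlapping genes: exon bases shared with another gene were at most 11.3% (mrpl-34). No sequences are shown.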

Additional observations from a re-analysis of the deposited data

Results flagged for a closer look

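In 6 of 150 groups of 4 libraries examined, 1 library lay far from the other 3 by Dixon's ratio of the gap to the range at its 95% critical value, which chance alone exceeds in about 1 in 20 groups. The groups were those of the 29 named genes and of the summed level. For mrpl-10, rescue 37°C replicate 3 had 71.3 CPM against 95.7 to 98.2 in the others. For mrpl-12, mutant 37°C replicate 2 had 149 CPM against 118 to 123. For mrpl-35, rescue 20°C replicate 4 had 31.3 CPM against 39.4 to 39.8. For mrps-10, mutant 20°C replicate 1 had 18.8 CPM against 13.5 to 14.2. For mrps-31, rescue 20°C replicate 1 had 28 CPM against 32.8 to 33.2. For mrps-7, mutant 20°C replicate 4 had 47.1 CPM against 53.7 to 55.0. No cause of these values was tested.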

How the results depend on the processing

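Counts of called members moved by more than 1.5 times, or between 0 and more, in these cases, and the cause was not tested except that fewer libraries entered where some were left out. Heat in wildtype gave 30 in 1 fit of all 23 libraries, 3 with shallower libraries only, and 11 to 15 with a replicate left out (main 19). Heat in rescue gave 8 with library size only and 3 to 11 with a replicate left out (main 14). Mutant against wildtype gave 1 by DESeq2 and 3 in 1 fit at 20°C, and 1 with library size only, 5 by DESeq2 and 5 in 1 fit at 37°C (main 0 at each). With a replicate left out, rescue against mutant at 20°C gave 19 to 38 (main 33), rescue against wildtype at 20°C 0 to 18 (main 16) and rescue against wildtype at 37°C 19 to 29 (main 30), the last also 19 with shallower libraries only. The interaction of rescue against wildtype gave 1 by DESeq2. The median of rescue against wildtype at 20°C (0.008) changed sign without the low count filter (-0.009), with the replicate block (-0.010) and between -0.084 and 0.090 with a replicate left out, and at 37°C (-0.226) with library size only (0.007). Library size only put the median of all genes between -0.114 and 0.189 in the 9 comparisons of 2 groups. Of 638 values of named genes under alternatives, 562 kept direction and side of the threshold, 76 were no longer called and 0 changed direction. Deviations of same-numbered libraries from their group means correlated at -0.202 to 0.580 over all genes tested. They were above 0 in every pair for heat in mutants alone (0.028 to 0.444). At 20°C those of replicate 4 were 0.359, 0.369 and 0.580 between the genotypes, and a shared effect of replicate was not tested. The replicate block gave 16 called members for heat in wildtype, 24 in mutant and 11 in rescue. For rescue against wildtype at 20°C it put 12.2% of all genes lower, against 7.92% in the main fit.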
